A study of Mus musculus with 18 samples.

Results

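RNA from CD45+ liver cells sorted as CD3+CD8+ was compared with RNA from CD45+ cells sorted as CD3-CD8-, in mice treated with poly(I:C) and an antibody to PD-L1. The comparison used 6 of the 18 libraries of the series, 3 per gate, chosen by their treatment and cell type labels, and 13040 of 48440 gene identifiers had enough counts to be tested. The mice were wild-type C57BL/6J animals bought at 7 weeks of age, with liver tumours raised by hydrodynamic tail vein injection of Ras and Myc oncogenes. Per the labels' dosing notes, poly(I:C), a double-stranded RNA that triggers innate sensors, was given at 4 mg/kg and the PD-L1 antibody at 200 µg, intraperitoneally, every other day for 6 doses. The same notes list a VEGF-A antibody that the treatment label of these libraries does not name. The other groups used below were the third gate of treated mice, CD3+CD8- (3 libraries), and the CD3+CD8+ and CD3-CD8- gates of untreated mice with the same tumours (3 libraries each). All were sorted on CD45 as well.

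CD3 is the group of signalling chains that carries the T cell receptor to the cell surface and relays its signal, and CD8, a dimer of the products of Cd8a and Cd8b1, is the coreceptor that binds MHC class I on cytotoxic T cells. A sort gate reads these proteins on the surface, whereas sequencing reads their transcripts. TCF-1 and LEF1, the products of Tcf7 and Lef1, are transcription factors of naive, memory and stem-like T cells, B cells carry the CD79 signalling chains, and NK cells carry the receptor NKp46, encoded by Ncr1.

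Library totals in the 6 libraries ran from 3977229 to 28233682 counts, and ribosomal loci held 0.348% to 1.47% of them. Ribosomal loci here include the mitochondrial ribosomal RNA genes and Lars2. The CD3+CD8+ library of number 19 stood apart: at a common depth of 3977229 counts it held 22152 genes with a count, against 15518 to 18175 in the other 5. The CD3-CD8- library of number 11 also stood apart, with 25559 CPM (counts scaled to the library total) in the 20 listed neutrophil genes, against 155.6 to 1902 in the other 5. Number 19 was sequenced on lane 3 and numbers 11 and 2 on lane 2, so lane and number cannot be told apart for number 19. Library names of number 19 also begin with PL and those of numbers 11 and 2 with P. Whatever this prefix marks cannot be told apart from lane either. The labels do not say whether a number stands for an animal, so p-values may measure technical spread. The number 2 libraries held Xist at 473 and 823 CPM of the total and the numbers 11 and 19 at 0.481 to 0.853 CPM. Ddx3y, a Y-linked gene, was at 0 and 0.402 CPM in number 2 and at 121 to 259 CPM in numbers 11 and 19. Sex-linked transcripts thus set number 2 apart from numbers 11 and 19 in both gates.

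The libraries labelled CD3-CD8- held Cd3 RNA at levels that overlapped those of the CD3+CD8+ libraries. They also held substantial Cd8 RNA, with each number lower than its CD3+CD8+ library. The transcripts thus do not follow the name of the gate. Summed, the CD3 and receptor constant genes were at 5224, 6171 and 4861 CPM of the total in CD3+CD8+ (numbers 11, 2 and 19) and at 3943, 6757 and 4080.4 in CD3-CD8-. The sum of Cd8a and Cd8b1 was at 1949, 3294 and 2946 CPM of the total in CD3+CD8+ and at 928, 2042 and 1336 in CD3-CD8-. By this sum too the gates overlapped, through number 11 of CD3+CD8+ and number 2 of CD3-CD8-. The cause was not tested. Levels are given below as CPM scaled with edgeR's TMM factors, in the order of library numbers 11, 2 and 19. Cd3e, a signalling chain of the CD3 complex, was at 321, 478 and 520 CPM in CD3+CD8+ and at 230, 416 and 307 CPM in CD3-CD8-. The gates overlapped, because number 2 of the CD3- gate lay above number 11 of the CD3+ gate. The log2 fold change of Cd3e, CD3+CD8+ over CD3-CD8-, was 0.47, with a 95% interval of -0.20 to 1.14 and an adjusted p of 0.634 (edgeR's quasi-likelihood test, Benjamini-Hochberg). Cd8a was at 1420, 1780 and 1708 CPM in CD3+CD8+ and at 730, 1316 and 1094 CPM in CD3-CD8-. Every CD3+CD8+ library lay above every CD3-CD8- library for this gene. The log2 fold change of Cd8a was 0.64 (interval -0.06 to 1.34, edgeR adjusted p = 0.435), which did not pass the threshold of 0.05.

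Of the 7 genes for CD3 chains and T cell receptor constant regions, none was called higher and none lower, beside 0.713% of all 13040 genes called higher in CD3+CD8+ and 4.49% called lower. Their median log2 fold change was 0.10, beside 0.02 over all genes tested, and 4 of the 7 had a 95% interval that lay within 1 on the log2 scale on both sides of 0. Trac, the constant region of the receptor's alpha chain, was at 462, 592 and 614 CPM in CD3+CD8+ and at 326, 510 and 364 CPM in CD3-CD8-. Cd3g, another CD3 chain, was at 2050, 1815 and 1231 CPM in CD3+CD8+ and at 1729, 2352 and 1915 CPM in CD3-CD8-, with overlapping gates and a log2 fold change of -0.23 (interval -0.96 to 0.49). Cd247, which encodes the zeta chain, was at 182, 315 and 299 CPM in CD3+CD8+ and at 107, 172 and 175 CPM in CD3-CD8-. The gates did not overlap, and the log2 fold change of 0.81 (SE 0.29) was not called at an edgeR adjusted p of 0.226 and was called at 0.0467 once the library number entered the edgeR fit as a block. In bulk RNA, fewer cells of a type and less RNA per cell cannot be told apart, here or in any result below.

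Cd8b1, the beta chain of the CD8 dimer, was at 568, 1143 and 1090 CPM in CD3+CD8+ and at 290, 582 and 454 CPM in CD3-CD8-. The gates overlapped through number 11 of CD3+CD8+ and number 2 of CD3-CD8-, while all 3 numbers were higher in their CD3+CD8+ library. The log2 fold change was 1.08 (SE 0.36, edgeR adjusted p = 0.183), and with the block by number the edgeR adjusted p was 0.0203. With offsets corrected for transcript GC content and the block together, both Cd8a (edgeR adjusted p = 0.0295) and Cd8b1 (0.00126) were called higher, in a fit that called 4.35% of all genes higher.

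The third treated gate gives levels for libraries labelled CD3+ without CD8. It was mixed by its transcripts: the 20 listed neutrophil genes summed to 3678 to 47458 CPM of the total. They summed to 895 to 25559 CPM in CD3-CD8- and to 156 to 908 CPM in CD3+CD8+. With all 18 libraries scaled together, Cd8a was at 12.7, 23.6 and 7.71 CPM in CD3+CD8-, at 549, 985 and 813 CPM in CD3-CD8- and at 1089, 1382 and 1270 CPM in CD3+CD8+. The CD3+CD8- libraries were therefore far below both other gates, and the CD3-CD8- libraries lay between them. Cd4, the coreceptor of helper T cells, had the reverse order, at 1001, 449 and 876 CPM in CD3+CD8-, 99.5, 79.7 and 64.9 CPM in CD3-CD8- and 32.5, 27.0 and 38.2 CPM in CD3+CD8+. In the CD3+CD8- library of number 2, 83.6% of counts came from ribosomal loci, so its values rest on fewer counts from other genes. The plot of the 3 treated gates shows these levels by library.

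**Figure D1:**
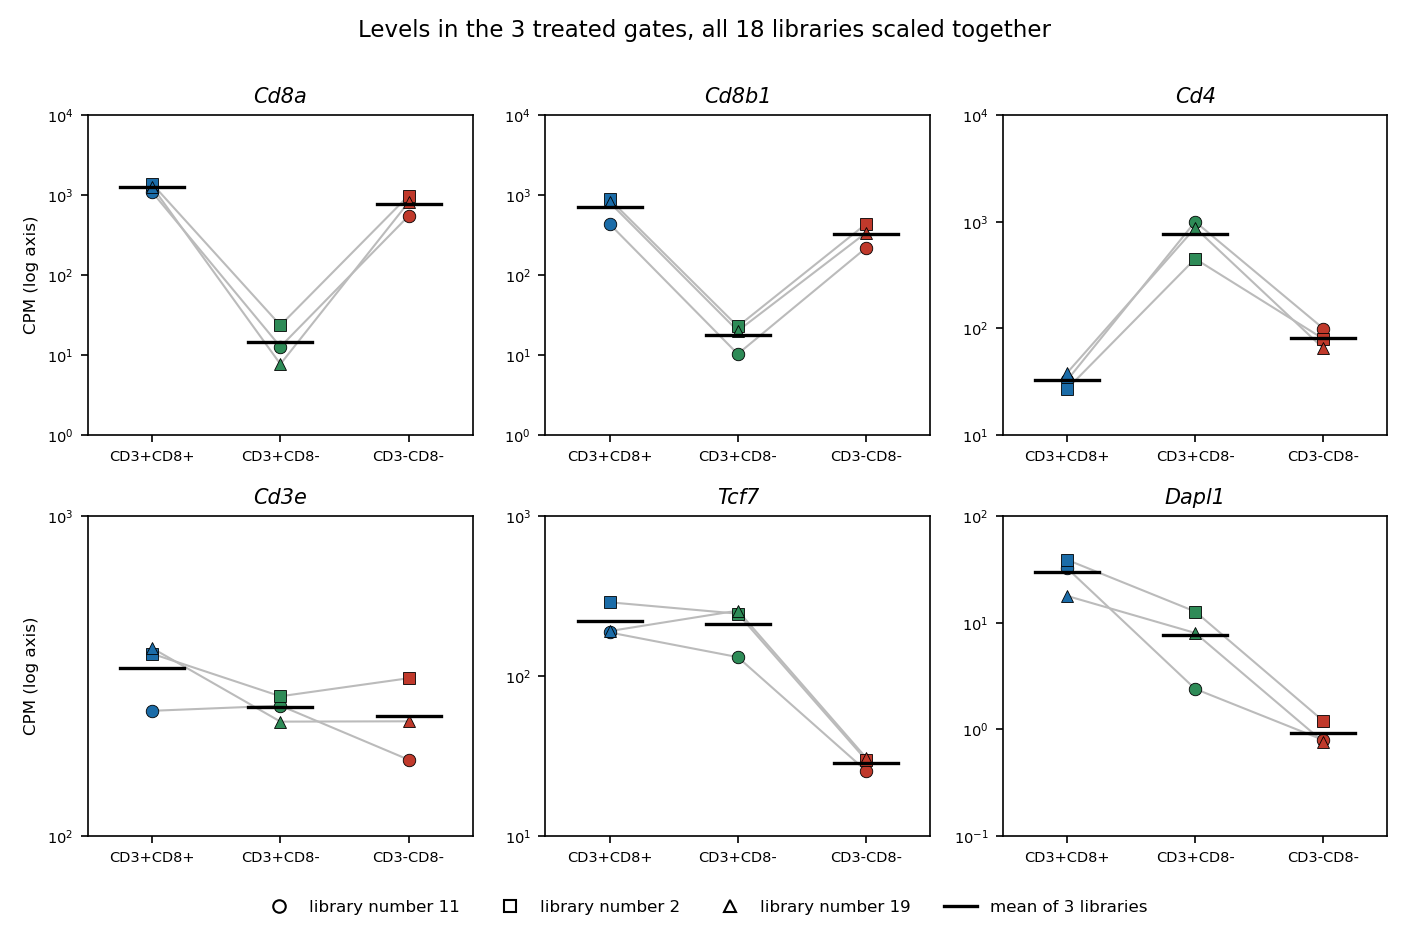
Levels of 6 genes in the treated gates, as CPM with all 18 libraries scaled together (vertical log axes, which differ between panels), by sort gate (horizontal axis). Points are libraries, shaped by number and joined by grey lines, and black bars are means of 3. Cd8a in CD3-CD8- (549 to 985 CPM) lies below CD3+CD8+ (1089 to 1382 CPM), while CD3+CD8- lies at 7.71 to 23.6 CPM.

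Gene lists were chosen with earlier results of these data known, so list counts here and below are descriptions and no independent support. Of the 11 genes of the T cell lists called higher in CD3+CD8+, 8 were genes of naive and stem-like T cells. Of the 20 genes listed for that state, 8 were called higher in CD3+CD8+ and none lower, beside 0.713% of all genes called higher, and the list's median log2 fold change was 0.95. The 8 were Dapl1, Nsg2, Lef1, Tcf7, Il7r, Actn1, Satb1 and Il6st. Leaving out 1 library at a time gave 5 to 10 called, the lowest without CD3+CD8+ number 2. Without CD3+CD8+ number 19, the library with the most genes detected, 10 were called, and in the numbers 11 and 2 alone 8 were. With the GC correction alone 11 of the 20 were called higher, in a fit that called 1.77% of all genes higher and 5.16% lower.

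Tcf7 was at 244, 373 and 257 CPM in CD3+CD8+ and at 34.1, 40.0 and 41.6 CPM in CD3-CD8-. The 3 CD3-CD8- libraries lay close together and far below the lowest CD3+CD8+ library. The log2 fold change was 2.91 (SE 0.25, edgeR adjusted p = 0.000365), which is 7.53-fold (95% interval 5.09 to 11.1). Lef1 was at 60.7, 111 and 60.4 CPM in CD3+CD8+ and at 5.81, 9.93 and 9.85 CPM in CD3-CD8-, again without overlap, and its log2 fold change was 3.14 (SE 0.34, edgeR adjusted p = 0.00125). Satb1, a chromatin organiser of T cell development, was at 197, 234 and 135 CPM against 75.6, 61.1 and 80.0 CPM. Its log2 fold change of 1.38 (SE 0.25, edgeR adjusted p = 0.0151) was the smallest of the 3 called among the 13 T lineage transcription factors. This call was lost without CD3+CD8+ number 2, without CD3-CD8- number 11, without CD3-CD8- number 19, and with all 18 libraries in 1 fit.

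Il7r, the receptor chain through which naive and memory T cells receive survival signals from interleukin 7, was at 629, 386 and 273 CPM in CD3+CD8+ and at 77.2, 59.7 and 78.9 CPM in CD3-CD8-. All 3 CD3+CD8+ libraries were higher, with number 11 the highest, and the log2 fold change was 2.58 (SE 0.33, edgeR adjusted p = 0.00276). Dapl1, a gene marking naive CD8+ T cells, was at 42.4, 50.2 and 24.0 CPM in CD3+CD8+ and at 1.06, 1.6 and 1.03 CPM in CD3-CD8-. The difference was a log2 fold change of 4.93 (SE 0.41, edgeR adjusted p = 0.000296), with every CD3-CD8- library far below every CD3+CD8+ library. Nsg2, a vesicle protein gene also found in naive T cells, was at 88.1, 128 and 72.8 CPM in CD3+CD8+ and at 4.23, 4.00 and 5.54 CPM in CD3-CD8-, a log2 fold change of 4.37 (SE 0.30, edgeR adjusted p = 0.000116).

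The other 12 genes of the naive list were not called. Of the 20, 11 had CD3+CD8+ higher without overlap, beside 7.19% of all genes. These 11 include the 8 called. In the other direction, 4 of the 20 had a log2 fold change below 0, the lowest -0.80. Of these 20, 1 had CD3+CD8+ lower without overlap, beside 11.5% of all genes. With the GC correction and the block together 13 were called higher and 1 lower, beside 4.35% and 7.84% of all genes. Ccr7, a chemokine receptor of naive T cells, was at 64.0, 188 and 88.2 CPM in CD3+CD8+ and at 52.9, 91.2 and 62.3 CPM in CD3-CD8-, with overlapping gates and an edgeR adjusted p of 0.544. S1pr1, the receptor that guides lymphocytes out of tissue, was higher in all 3 CD3+CD8+ libraries (154, 252 and 110 CPM against 72.1, 73.9 and 88.7 CPM) and was not called, at an edgeR adjusted p of 0.0806. Txk and Igfbp4 were added to the called genes by the block (edgeR adjusted p = 0.0371 and 0.00751), which brought the list's count to 10 of 20, beside 1.23% of all genes called higher in that fit.

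**Figure D2:**
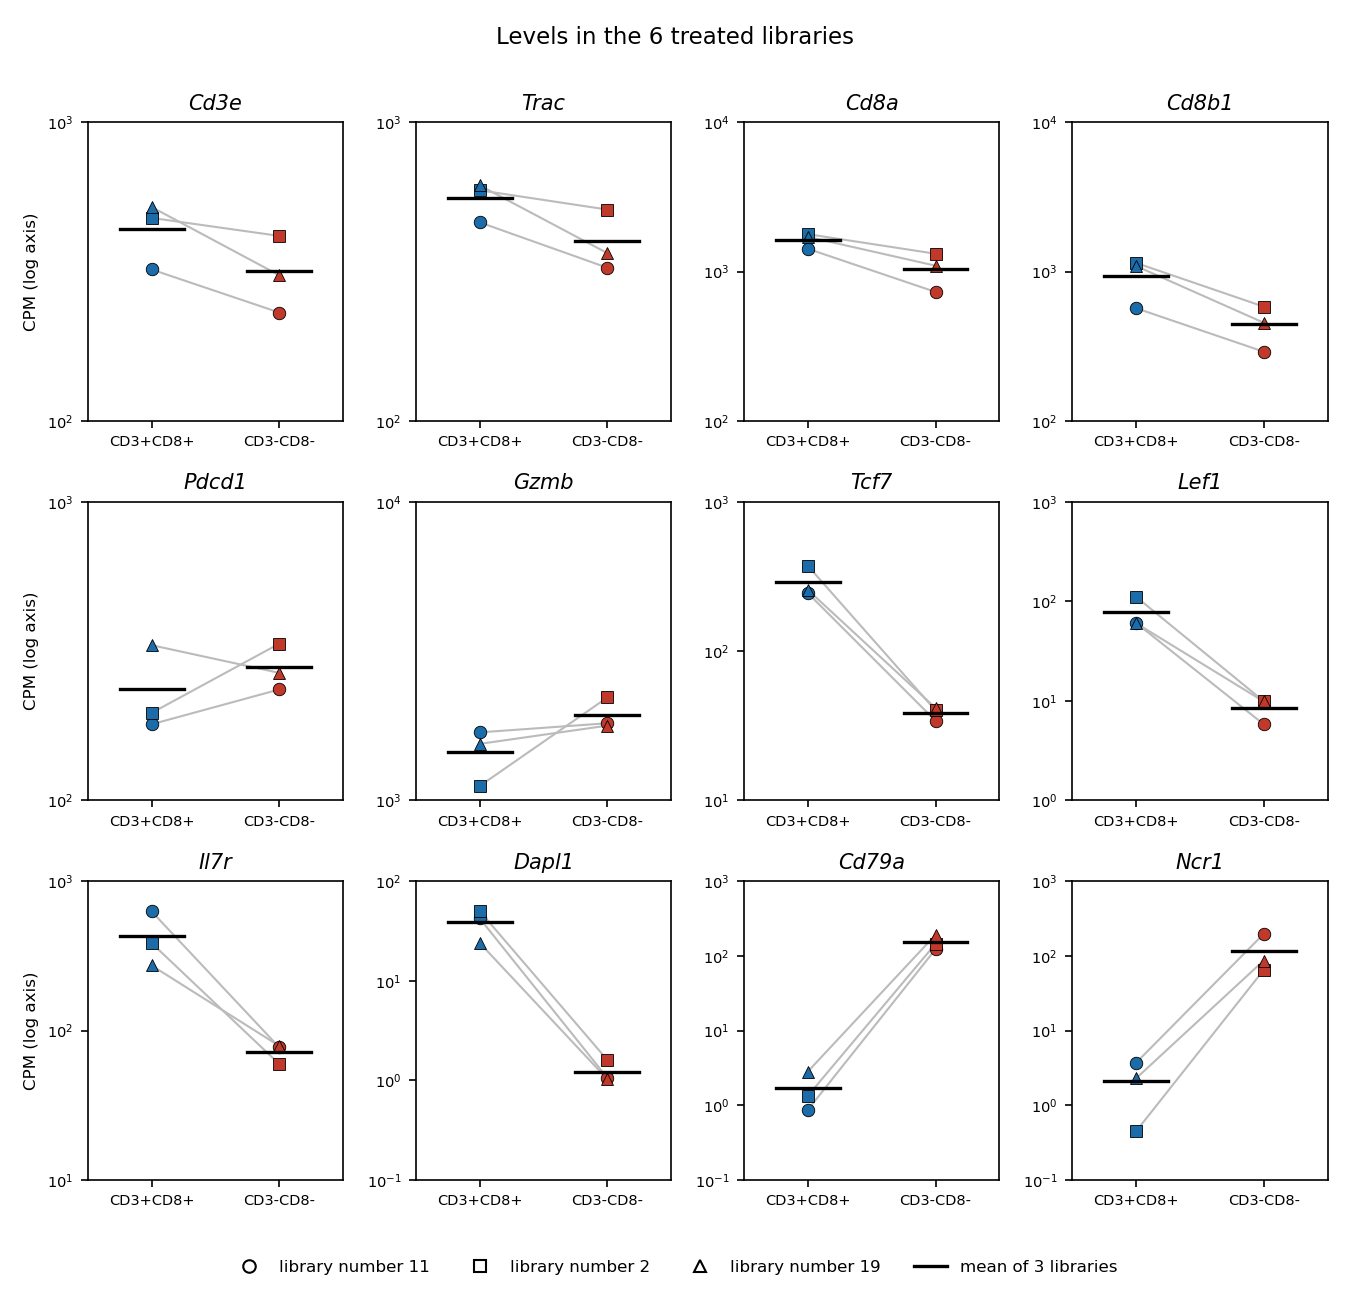
Levels of 12 genes in the 6 treated libraries, as CPM (vertical log axes, which differ between panels), by sort gate (horizontal axis). Points are libraries, shaped by number and joined by grey lines, and black bars are means of 3. Cd3e, Trac, Pdcd1 and Gzmb lie close together in both gates, while Tcf7, Lef1, Il7r and Dapl1 are higher in every CD3+CD8+ library and Cd79a and Ncr1 lower.

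The promoters of a pair of genes that were called and a pair that were not are shown here so that the start of each gene can be read beside its level. Each window runs from 250 bases before to 50 bases after the start site, from RefSeq on GRCm38.p6, on the gene's strand. The windows are chr15:9529827-9530126 (Il7r, minus strand), chr2:59484403-59484702 (Dapl1, plus), chr9:45009562-45009861 (Cd3e, minus) and chr6:71373177-71373476 (Cd8a, plus). Capitals mark matches, on either strand, to CTTTGA (the TCF and LEF motif), TGTGGT (RUNX) or GGAAGT (ETS), motifs of factors that act in T cells.
Il7r: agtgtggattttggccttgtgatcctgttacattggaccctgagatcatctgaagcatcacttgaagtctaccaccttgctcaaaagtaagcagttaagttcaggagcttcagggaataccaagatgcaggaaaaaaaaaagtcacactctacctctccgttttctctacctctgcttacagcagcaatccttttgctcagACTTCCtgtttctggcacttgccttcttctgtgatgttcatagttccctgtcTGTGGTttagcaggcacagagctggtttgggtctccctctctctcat
Dapl1: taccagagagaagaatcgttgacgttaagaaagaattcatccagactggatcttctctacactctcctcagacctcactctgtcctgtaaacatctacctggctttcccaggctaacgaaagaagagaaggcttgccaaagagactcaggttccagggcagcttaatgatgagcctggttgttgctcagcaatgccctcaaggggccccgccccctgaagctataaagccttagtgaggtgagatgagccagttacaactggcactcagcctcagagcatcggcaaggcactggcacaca
Cd3e: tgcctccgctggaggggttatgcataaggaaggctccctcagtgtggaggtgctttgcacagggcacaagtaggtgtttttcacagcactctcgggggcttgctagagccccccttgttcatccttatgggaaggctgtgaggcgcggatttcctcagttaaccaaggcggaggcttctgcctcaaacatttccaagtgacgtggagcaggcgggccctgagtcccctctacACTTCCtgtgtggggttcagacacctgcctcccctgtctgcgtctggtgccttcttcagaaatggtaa
Cd8a: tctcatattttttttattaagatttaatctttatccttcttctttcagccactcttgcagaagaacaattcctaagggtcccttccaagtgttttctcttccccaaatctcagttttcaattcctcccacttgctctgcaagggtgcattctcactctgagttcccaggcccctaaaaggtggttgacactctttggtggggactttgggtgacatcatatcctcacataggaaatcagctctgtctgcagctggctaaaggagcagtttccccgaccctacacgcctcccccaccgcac

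The Il7r window held 1 ETS match, whose first base was at -49 from the start site, and 1 RUNX match at 3, and the Cd3e window held 1 ETS match at -18. The Dapl1 and Cd8a windows held no match to these letters. Over 1 window for each of 27025 genes, 16.2% held the TCF and LEF letters, 16.9% the RUNX letters and 24.1% the ETS letters. The match counts of these 4 windows are a description of the letters only.

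Over the T cell lists without receptor segments, 144 genes were tested, of which 11 were called higher in CD3+CD8+, 9 lower and 124 neither. That is 7.64% higher and 6.25% lower, beside 0.713% and 4.49% of all genes. With the block 18 were called higher and 14 lower, beside 1.23% and 6.27% of all genes. The 95% interval lay within 1 on the log2 scale on both sides of 0 for 47 of the 144, so for those a difference of more than 2-fold lay outside the interval. The plot of log2 fold changes by list shows the naive list spread to the right, the CD3 and receptor constant, inhibitory and cytotoxic lists around 0, and the CD8, receptor signalling and alpha-beta segment lists mostly above 0 (2 of 2, 21 of 24 and 70 of 82 genes).

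**Figure D3:**
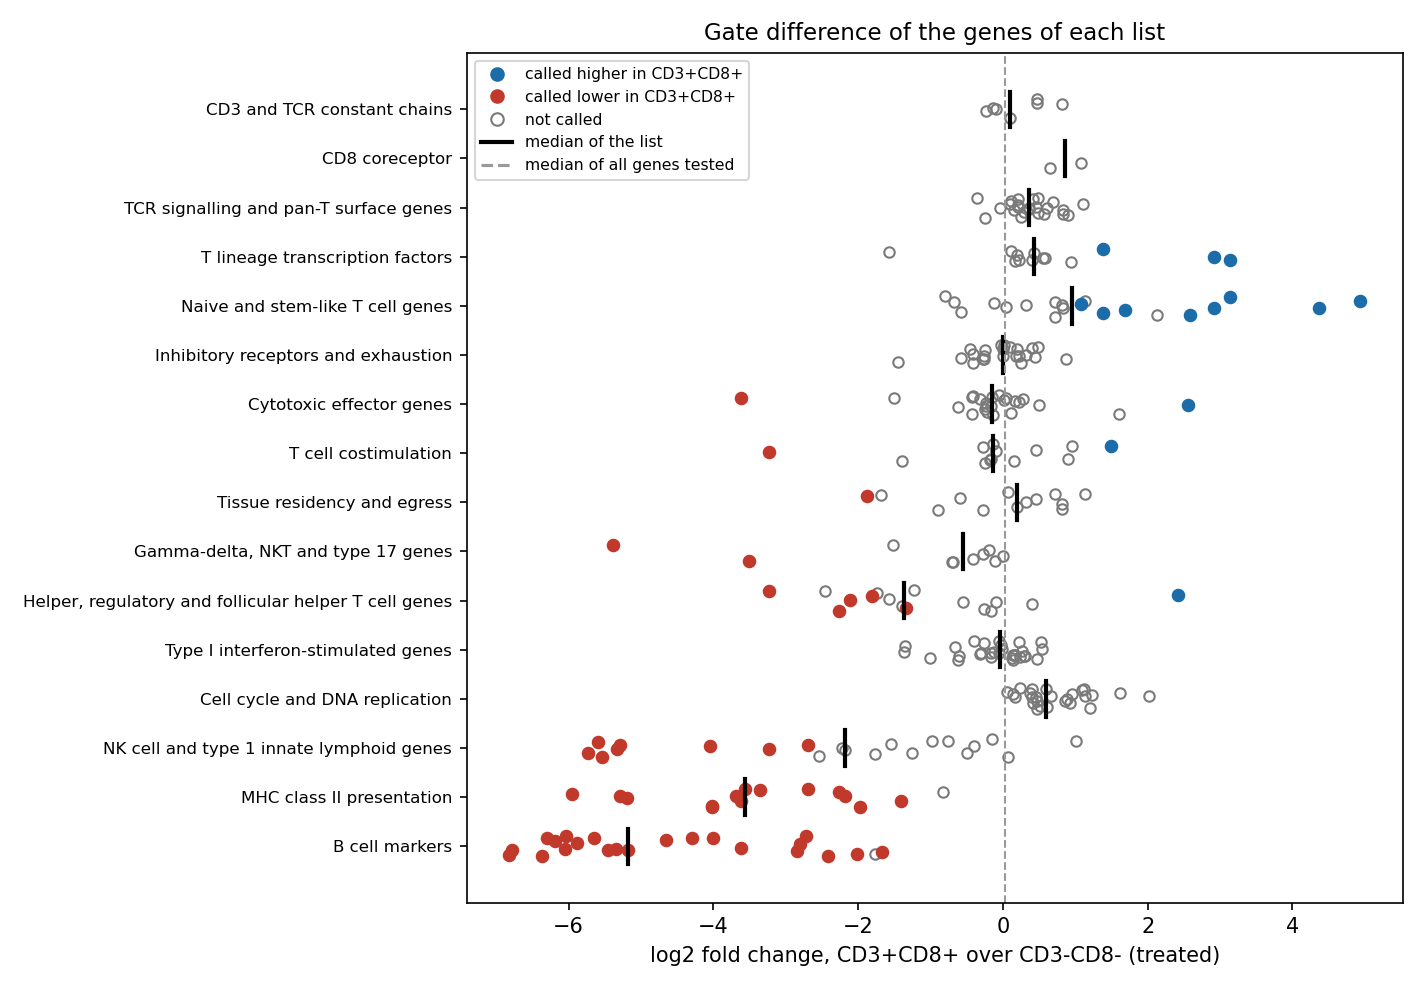
Log2 fold change, CD3+CD8+ over CD3-CD8- in treated mice (horizontal axis), of each gene tested in 16 gene lists (rows, with vertical jitter). Filled points were called at an edgeR adjusted p under 0.05, black bars are list medians and the dashed line is the median of all genes tested (0.02). The naive list has 8 called higher and the B cell list 22 called lower, while no gene of the CD3, CD8, receptor signalling or inhibitory lists was called.

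None of the 24 genes of receptor signalling and pan-T surface proteins was called, and their median log2 fold change was 0.36. Lck, the kinase that starts receptor signalling, was at 272, 444 and 680 CPM in CD3+CD8+ and at 278, 490 and 405 CPM in CD3-CD8-, with overlapping gates. Cd2, an adhesion receptor of T and NK cells, had a log2 fold change of -0.04 (interval -0.62 to 0.54). Zap70, the next kinase in the pathway, was at 27.4, 36.8 and 146 CPM against 37.0, 70.3 and 65.2 CPM, so that only number 19 was higher in CD3+CD8+. With the block by number, 3 of the 24 were called higher, beside 1.23% of all genes, among them Prkcq (edgeR adjusted p = 0.0163) and Txk (0.0371). With the GC correction and the block together 8 of the 24 were called higher, beside 4.35% of all genes.

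Bcl11b, a transcription factor that keeps T cell identity, was at 147, 207 and 124 CPM in CD3+CD8+ and at 58.1, 113 and 76.6 CPM in CD3-CD8-. The gates did not overlap, as for 7.19% of all genes with CD3+CD8+ the higher gate, and the edgeR adjusted p was 0.15, or 0.0255 with the block. Eomes, a factor of effector and memory CD8+ T cells and of NK cells, was at 178, 174 and 179 CPM against 92.0, 129 and 135 CPM and was not called (edgeR adjusted p = 0.238). Tbx21, which encodes T-bet, was at 36.6, 56.9 and 61.5 CPM in CD3+CD8+ and at 36.5, 56.1 and 42.4 CPM in CD3-CD8-, a log2 fold change of 0.20 (interval -0.41 to 0.80). Zbtb7b, the factor that directs T cells to the CD4 lineage, was lower in all 3 CD3+CD8+ libraries (2.39, 2.23 and 6.11 CPM against 14.5, 8.70 and 10.8 CPM), with an edgeR adjusted p of 0.117, or 0.0413 with the block.

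Of 23 genes of inhibitory receptors and exhaustion, none was called in either direction with or without the block, the median log2 fold change was 0.00, and 15 of the 23 had an interval within 1 on the log2 scale. Pdcd1, which encodes PD-1, the receptor of the ligand that the treatment antibody binds, was at 180, 196 and 331 CPM in CD3+CD8+ and at 235, 335 and 267 CPM in CD3-CD8-. The gates overlapped, number 19 being higher in CD3+CD8+ and numbers 11 and 2 higher in CD3-CD8-, and the log2 fold change was -0.24 (interval -0.89 to 0.41). Tox, a factor that sustains the exhausted state, was at 316, 354 and 375 CPM against 257, 347 and 293 CPM, and Havcr2, which encodes TIM-3, at 174, 95 and 160 CPM against 108, 107 and 131 CPM. Lag3, another inhibitory receptor, was at 58.3, 67.4 and 212 CPM against 92.0, 130 and 94.1 CPM, with number 19 of CD3+CD8+ the highest. Nr4a1, an early response gene of receptor signalling, had the largest difference of the list, -1.45 (interval -2.46 to -0.45, edgeR adjusted p = 0.127), and was called lower with the GC correction and the block together (edgeR adjusted p = 0.0127). The fit without a filter on low counts and DESeq2 each called 1 gene of the list lower.

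Btla, an inhibitory receptor of B and T cells that stood in none of the lists, was called lower in CD3+CD8+ with a log2 fold change of -2.47 (SE 0.51, edgeR adjusted p = 0.0254). It is named here after its value was seen.

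Of 24 cytotoxic effector genes, 1 was called higher in CD3+CD8+ and 1 lower, beside 0.713% and 4.49% of all genes, so the number called lower was about that of the background, and the median log2 fold change was -0.16, which turned to 0.015 with the GC correction. Gzmb, the main apoptosis-inducing granzyme, was at 1689, 1117 and 1546 CPM in CD3+CD8+ and at 1812, 2211 and 1780 CPM in CD3-CD8-. All 3 CD3-CD8- libraries were above all 3 CD3+CD8+ libraries, and the log2 fold change of -0.42 (interval -1.09 to 0.26) was not called. Gzma, another granzyme, was at 4408, 2113 and 3101 CPM against 4479, 3518 and 4943 CPM. In the CD3+CD8- gate, with 18 libraries scaled together, Gzmb was at 151, 110 and 160 CPM. Prf1, the pore-forming perforin, was at 80.3, 127 and 242 CPM in CD3+CD8+ and at 92.0, 156 and 122 CPM in CD3-CD8-, again with overlap.

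The called cytotoxic genes were both low. The gene called higher was lost without CD3-CD8- number 11 or number 19, and no gene was called lower without CD3+CD8+ number 2, while 2 were without CD3+CD8+ number 11. Gzmm, a granzyme of innate-like lymphocytes, was at 5.01, 7.14 and 11.2 CPM in CD3+CD8+ and at 1.32, 1.65 and 1.03 CPM in CD3-CD8- (log2 fold change 2.56, SE 0.46, edgeR adjusted p = 0.014). Gzmc, a granzyme of strongly activated cytotoxic cells, was at 0.653, 0.446 and 1.24 CPM against 21.7, 6.08 and 5.99 CPM (log2 fold change -3.62, SE 0.69, edgeR adjusted p = 0.0174). Xcl1, the chemokine lymphotactin, was lower in all 3 CD3+CD8+ libraries (45.3, 28.8 and 13.6 CPM against 113, 85.1 and 49.5 CPM), with an edgeR adjusted p of 0.118, or 0.00148 with the block.

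Of 16 helper, regulatory and follicular helper genes, 5 were called lower in CD3+CD8+ and 1 higher, beside 4.49% and 0.713% of all genes. Their median log2 fold change was -1.36. Cd4 was at 42.4, 34.8 and 51.4 CPM in CD3+CD8+ and at 132, 107 and 87.3 CPM in CD3-CD8-. The gates did not overlap, and the log2 fold change was -1.33 (SE 0.24, edgeR adjusted p = 0.0135). This call was lost without CD3+CD8+ number 2, without CD3-CD8- number 11, and with all 18 libraries in 1 fit. Cd40lg, the ligand by which helper T cells activate B cells and dendritic cells, was at 2.39, 0.892 and 0.844 CPM against 7.93, 15.8 and 12.4 CPM (log2 fold change -3.23, SE 0.52, edgeR adjusted p = 0.0083). Cxcr5, the follicle homing receptor that B cells also carry, was at 17.4, 23.6 and 11.9 CPM against 67.7, 82.1 and 75.3 CPM, and Bcl6, the follicular helper and germinal centre factor, at 5.44, 4.68 and 6.26 CPM against 26.7, 14.6 and 17.3 CPM. The call of Bcl6 was lost without CD3+CD8+ number 2 and without CD3-CD8- number 11 or number 19. Capg, an actin capping gene also found in myeloid cells, had a log2 fold change of -2.26 (SE 0.30, edgeR adjusted p = 0.00302).

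Foxp3, the factor of regulatory T cells, was at 0.218, 0.223 and 1.04 CPM in CD3+CD8+ and at 3.70, 3.63 and 3.08 CPM in CD3-CD8-, with an edgeR adjusted p of 0.0525, or 0.0346 with the block. The block brought the count called lower in this list to 8, beside 6.27% of all genes. With the GC correction and the block it was also 8, beside 7.84%. The gene called higher, Gpr83, lost its call with the block and no GC correction (edgeR adjusted p = 0.0435 without the block and 0.0609 with it). No list gene was called higher without a filter, with the stricter filter, DESeq2 in full, lane as a covariate or limma on FPKM. The same held with any 1 library left out. Leaving out 1 library gave 3 to 8 called lower, with 3 both without CD3+CD8+ number 2 and without CD3-CD8- number 11. The summed level of the 23 B cell markers, at 4412 to 5731 CPM of the total in CD3-CD8- and 381 to 478 in CD3+CD8+, moved the same way as Cxcr5, Bcl6, Capg and Cd40lg. Its part in the result was not tested.

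Of 10 tested genes of gamma-delta, NKT and type 17 cells, 2 were called lower in CD3+CD8+, beside 4.49% of all genes. Ccr6, a chemokine receptor of type 17 T cells and of B cells, was at 1.31, 0.446 and 0.348 CPM in CD3+CD8+ and at 29.1, 24.0 and 22.6 CPM in CD3-CD8- (log2 fold change -5.38, SE 0.50, edgeR adjusted p = 0.000584). Zbtb16, which encodes PLZF, the factor of innate-like T cells, was at 0.435, 0 and 0.695 CPM against 5.55, 7.42 and 3.24 CPM (log2 fold change -3.51, SE 0.71, edgeR adjusted p = 0.023). Trdc, the constant region of the delta receptor chain, was at 10, 13.8 and 5.41 CPM against 11.4, 10.8 and 6.77 CPM, a log2 fold change of 0.00 (interval -0.94 to 0.95). Of the list, 1 gene was called lower without CD3+CD8+ number 11, without CD3+CD8+ number 2 or without CD3-CD8- number 2.

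Among 13 costimulation genes 1 was called higher and 1 lower, beside 0.713% and 4.49% of all genes, the lower being Cd40lg. Tnfsf8, the CD30 ligand, was the one called higher, at 103, 67.6 and 49.9 CPM in CD3+CD8+ and at 33.3, 21.6 and 24.2 CPM in CD3-CD8- (log2 fold change 1.49, SE 0.31, edgeR adjusted p = 0.0261). Its call was lost without CD3+CD8+ number 2, without CD3-CD8- number 2 or number 19, and with all 18 libraries in 1 fit. Without CD3+CD8+ number 19, 3 of the 13 were called higher. Icos, the inducible costimulator, was at 73.3, 68.7 and 45.5 CPM against 66.6, 58.8 and 42.7 CPM, so each number differed by little. Among 13 genes of residency and egress 1 was called: Rgs2, a regulator of G protein signals, which was lower in CD3+CD8+ at 59.9, 95 and 30.6 CPM against 330, 193 and 152 CPM (edgeR adjusted p = 0.0439). Its call was lost in 5 of the 6 fits that left out a library, all but the one without CD3+CD8+ number 2, and with the stricter filter or DESeq2 size factors. Cxcr6, a receptor of liver-resident lymphocytes, was at 756, 817 and 692 CPM in CD3+CD8+ and at 582, 1210 and 941 CPM in CD3-CD8-, with overlapping gates.

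Rearranged receptor segments were present in both gates. None of the 82 tested alpha and beta chain segments was called, and their median log2 fold change was 0.52. With the block, 4 were called higher, beside 1.23% of all genes. Summed over all alpha and beta chain segments, tested or not, they held 1457, 1879 and 979.7 CPM of the total in CD3+CD8+ (numbers 11, 2 and 19) and 782, 1457 and 819 CPM in CD3-CD8-, so the gates overlapped. The shares of the 22 Trbv segments differed between numbers: Trbv12-1 held 15.2% and 14.1% of Trbv counts in the CD3+CD8+ and CD3-CD8- libraries of number 19, and 5.23% and 2.33% in those of number 11. Trbv29 held 26.6% and 23.5% in number 2, and 4.72% and 7.05% in number 19.

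Across the 22 segments, the share in a CD3+CD8+ library correlated with the share in the CD3-CD8- library of the same number at r = 0.741 (number 11), 0.652 (number 2) and 0.926 (number 19). With the CD3-CD8- libraries of other numbers r ran from 0.212 to 0.674, and the CD3-CD8- library of number 2 was closest to CD3+CD8+ number 11 (r = 0.674). With each segment taken as the deviation of log2(share + 0.1) from its gate mean, r for the same number was 0.550 (number 11), 0.283 (number 2) and 0.875 (number 19), and CD3+CD8+ number 2 had a higher r with CD3-CD8- number 11 (0.516) than with its own number. These are descriptions across segments, which are not independent and share each library's 2662 to 21324 Trbv counts.

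The plot of mean levels shows 93 genes called higher in CD3+CD8+ and 585 called lower, together 5.2% of those tested. Leaving out genes of low level, receptor segments and unnamed models, the 8 largest called rises were Slc6a19 (log2 fold change 5.29), Dapl1 (4.93), Tdrp (4.42), Nsg2 (4.37), Lef1 (3.14), Tcf7 (2.91), Ly6c2 (2.84) and Vipr1 (2.78). Slc6a19, a neutral amino acid transporter, was at 8.05, 26.5 and 22.3 CPM in CD3+CD8+ and at 0, 0.640 and 0.493 CPM in CD3-CD8-. Ly6c2, a surface protein of monocytes and of memory CD8+ T cells, was at 579, 697 and 292 CPM against 110, 67.7 and 42.7 CPM. Vipr1, the receptor of vasoactive intestinal peptide, was at 13.3, 21.4 and 19.6 CPM against 1.59, 2.40 and 3.53 CPM.

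**Figure D4:**
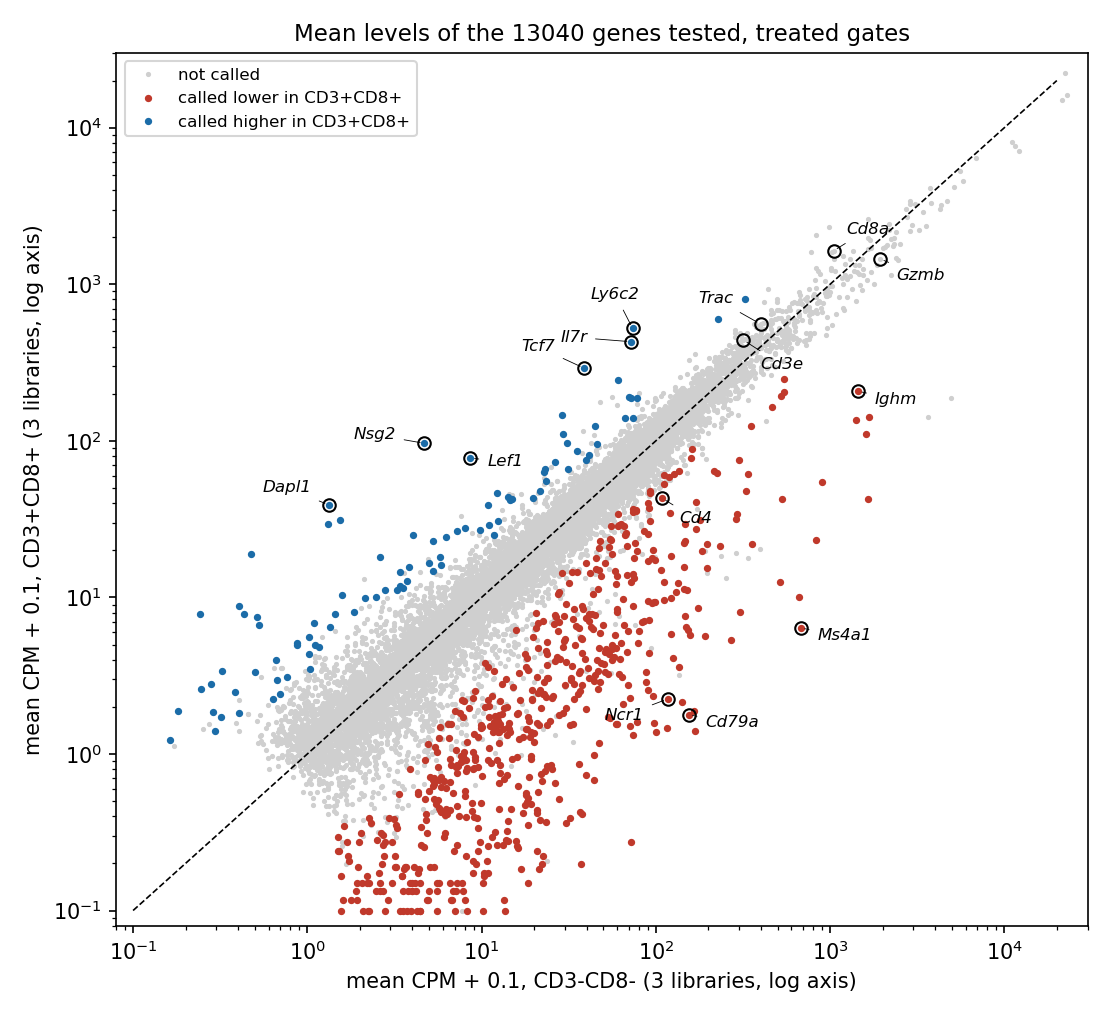
Mean CPM plus 0.1 over 3 libraries of each of the 13040 genes tested, CD3-CD8- (horizontal log axis) against CD3+CD8+ (vertical log axis), in treated mice. Blue points (93) were called higher and red points (585) lower in CD3+CD8+, and the dashed line marks equal means. Cd3e, Trac and Gzmb lie along the line and Cd8a a little above it, Tcf7, Lef1, Il7r, Dapl1 and Nsg2 lie well above, and Cd79a, Ms4a1 and Ncr1 below.

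Of the 93 genes called higher, 11 stood in a T cell list and 79 in no list. Of the 585 called lower, 10 stood in a T cell list, 202 in a list of another cell type, of which 127 were immunoglobulin segments, and 373 in no list. Leaving out 1 library gave 23 to 164 genes higher and 307 to 571 lower. Without CD3+CD8+ number 2 the counts were 25 and 307, without CD3-CD8- number 19 they were 23 and 334, and without CD3+CD8+ number 19 they were 164 and 550. Without CD3-CD8- number 2 or number 11, 47 and 55 genes were called higher. With the block 160 genes were higher and 818 lower (7.5% together), and 91 of the 93 and 584 of the 585 were called in both fits. Scaling by library totals alone moved the median of all genes from 0.02 to 0.17 on the log2 scale and gave 131 higher and 630 lower.

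B cell genes marked the CD3-CD8- gate most clearly. Of 23 B cell markers, 22 were called lower in CD3+CD8+, beside 4.49% of all genes, and none higher. The median log2 fold change was -5.17, and the gates did not overlap for any of the 23, as for 11.5% of all genes. Cd79a was at 0.871, 1.34 and 2.83 CPM in CD3+CD8+ and at 123, 146 and 193 CPM in CD3-CD8- (log2 fold change -6.30, SE 0.42, edgeR adjusted p = 9.45e-05). Ms4a1, which encodes CD20, was at 7.62, 6.25 and 4.97 CPM against 604, 629.9 and 799.8 CPM. By the same rule the largest called falls included Fcmr, Ms4a1, Cd79a, Cr2, Pax5, Ighd and H2-Eb2, with log2 fold changes from -6.82 to -5.95. Of 378 immunoglobulin segments listed, 144 had enough counts to be tested, and 127 of these were called lower. All listed segments together held 62.4 to 95.6 CPM of the total in CD3+CD8+ and 1252 to 2472 CPM in CD3-CD8-. Segments could thus pass the filter through the CD3-CD8- gate alone, so this count adds no support beyond those sums. Of 15 genes of MHC class II presentation 14 were called lower, beside 4.49% of all genes. Among these 14 was Cd74, at 94.2, 99.7 and 230 CPM against 1750, 1365 and 1914 CPM. Of the immunoglobulin segments 83 were called lower without CD3-CD8- number 19, and of the MHC class II genes 10 without CD3+CD8+ number 2. B cell markers were thus low in every CD3+CD8+ library, as the label of that gate says.

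NK cell genes also marked the CD3-CD8- gate, in part. Of 21 genes of NK cells and type 1 innate lymphoid cells, 8 were called lower in CD3+CD8+, beside 4.49% of all genes, and none higher, and the median log2 fold change was -2.19. Ncr1 was at 3.70, 0.446 and 2.28 CPM in CD3+CD8+ and at 198, 64.9 and 86.9 CPM in CD3-CD8-, without overlap (log2 fold change -5.73, SE 0.64, edgeR adjusted p = 0.00137). The other 7 were Klrb1a, Klrb1b, Klrb1c, Klra4, Klra8, Klri2 and Fcer1g, mostly lectin-like receptors of NK cells. The genes of the list with the highest levels, which CD8+ T cells also express, were not called: Cd7 had a log2 fold change of -0.39, Il2rb, the shared receptor chain of interleukins 2 and 15, of 0.07, and Tnfsf10, the ligand TRAIL, of -0.15. With the block 15 of the 21 were called lower, beside 6.27% of all genes.

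Of 21 monocyte and macrophage genes 10 were called lower in CD3+CD8+, beside 4.49% of all genes, and 1 higher, the latter being Ly6c2. Of the 21, 6 were called lower without CD3+CD8+ number 2. Lyz2, the myeloid lysozyme, was at 149, 120 and 63.9 CPM in CD3+CD8+ and at 2982, 926 and 885 CPM in CD3-CD8-. Of 17 neutrophil genes 3 were called lower, beside 4.49% of all genes, and 14 were not called. S100a9, a calprotectin subunit of neutrophils, was at 422, 81.6 and 55.1 CPM against 13609, 381 and 914 CPM, so the gates overlapped through the number 11 library of CD3+CD8+, which was itself the highest of its gate. With the block 16 of the 17 were called lower, beside 6.27% of all genes, and without CD3+CD8+ number 2 none was. Without CD3-CD8- number 11, the library with the highest neutrophil level, 2 were called and the list median moved from -4.29 to -1.84. Without CD3+CD8+ number 19, 1 was called, and without CD3-CD8- number 2, 11 were. Of 10 Kupffer cell genes 3 were called lower, beside 4.49% of all genes, and 7 were not called. Cd5l was at 28.1, 17 and 20.4 CPM against 335, 62.7 and 195 CPM. None of the Kupffer genes was called without CD3+CD8+ number 2, where Cd5l also lost its call, 1 was without CD3-CD8- number 11 or number 19, and 5 were without CD3-CD8- number 2.

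Of 16 genes listed for plasmacytoid dendritic cells, 3 were called higher in CD3+CD8+ and 2 lower, beside 0.713% and 4.49% of all genes. The 3 were Ly6c2, Ccr9, a gut homing receptor, and Runx2, a transcription factor, all of which T cells can also express, and the 2 were Spib and Cadm1. The list's median log2 fold change was 0.96, beside 0.95 for the naive list, with 13 of the 16 above 0 and 3 below. Without overlap, 7 were higher in CD3+CD8+ and 2 lower, beside 7.19% and 11.5% of all genes. Without CD3+CD8+ number 2 or without CD3-CD8- number 19, 1 was called higher and none lower. Siglech, a defining marker of these cells, was at 259, 149 and 167 CPM in CD3+CD8+ and at 96.2, 15.3 and 56.9 CPM in CD3-CD8-, without overlap. Its edgeR adjusted p was 0.14, or 0.00537 with the block. The summed level of the list was 1168 to 1574 CPM of the total in CD3+CD8+ and 461 to 812 in CD3-CD8-, and the part of these cells in the results was not tested.

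Of 30 type I interferon-stimulated genes none was called, with a median log2 fold change of -0.04 (0.10 with scaling by library totals alone). With the block, Oasl2 alone of the 30 was called lower (edgeR adjusted p = 0.0296). With the GC correction and the block, 2 of the 30 were called higher and 3 lower, beside 4.35% and 7.84% of all genes. All 26 cell cycle genes had a log2 fold change above 0, with a median of 0.60, and none was called. That median was 0.17 without CD3+CD8+ number 11 and 1.06 without CD3-CD8- number 11. The block called 1 of them higher, Cenpf, a kinetochore gene (edgeR adjusted p = 0.0366 with the block and 0.572 without it). With the GC correction and the block, 7 of the 26 were called higher, beside 4.35% of all genes, and 5 were without a filter on low counts. None of 18 hepatocyte and none of 10 erythroid and platelet genes was called, while the block called 1 hepatocyte gene lower. The hepatocyte genes summed to 2291 CPM of the total in CD3+CD8+ number 19, against 624 and 579 in numbers 11 and 2 of that gate and 673 to 1838 in CD3-CD8-. With CD3+CD8+ number 19 left out, 2 hepatocyte genes and 1 erythroid or platelet gene were called lower, and the hepatocyte median moved from -0.27 to -1.37.

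The same gates in untreated mice gave a reference for each gene. The difference between the treated and the untreated gate difference was tested over all 18 libraries in 1 edgeR fit, and none of 13181 genes was called. There were 515 genes whose unadjusted p was below 0.05, and the smallest adjusted p was 0.844. DESeq2 called 1. In the libraries labelled untreated CD3+CD8+ of numbers 1 and 18, ribosomal loci held 86.3% and 79.3% of counts. These shares include mitochondrial ribosomal RNA, and all mitochondrial transcripts together held 20.3% and 53.8% there. Cd79a was at 126 CPM in number 18 against 11.3 and 1.57 CPM in numbers 1 and 5, so the untreated values rest on uneven libraries. With every library of mostly ribosomal counts left out, edgeR also called 0 genes. Without untreated CD3+CD8+ number 5 it called 2.

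Side by side, with treated values from the fit of 6 libraries and untreated values and differences from that of 18, Tcf7 had a log2 gate difference of 2.91 in treated and 2.18 in untreated mice, and Nsg2 of 4.37 and 4.08. Cd8a had 0.64 and 1.85 (difference of -1.18, SE 1.61), and Cd3e 0.47 and 1.13 (difference of -0.64, SE 0.52). Themis, a T cell receptor signalling gene of thymic selection, had 0.36 and 2.45 (difference of -2.06, SE 0.56, unadjusted p = 0.00198 and adjusted p = 0.844 from edgeR). All 7 CD3 and receptor constant genes had a smaller gate difference in treated mice, and none of these differences was called. The 5 genes with the smallest p among those of sufficient level were Xlr4c, Syne3, Pik3ap1, Ltf and Cmklr1, with differences of -2.31, 1.70, 1.17, -6.25 and 2.58.

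**Figure D5:**
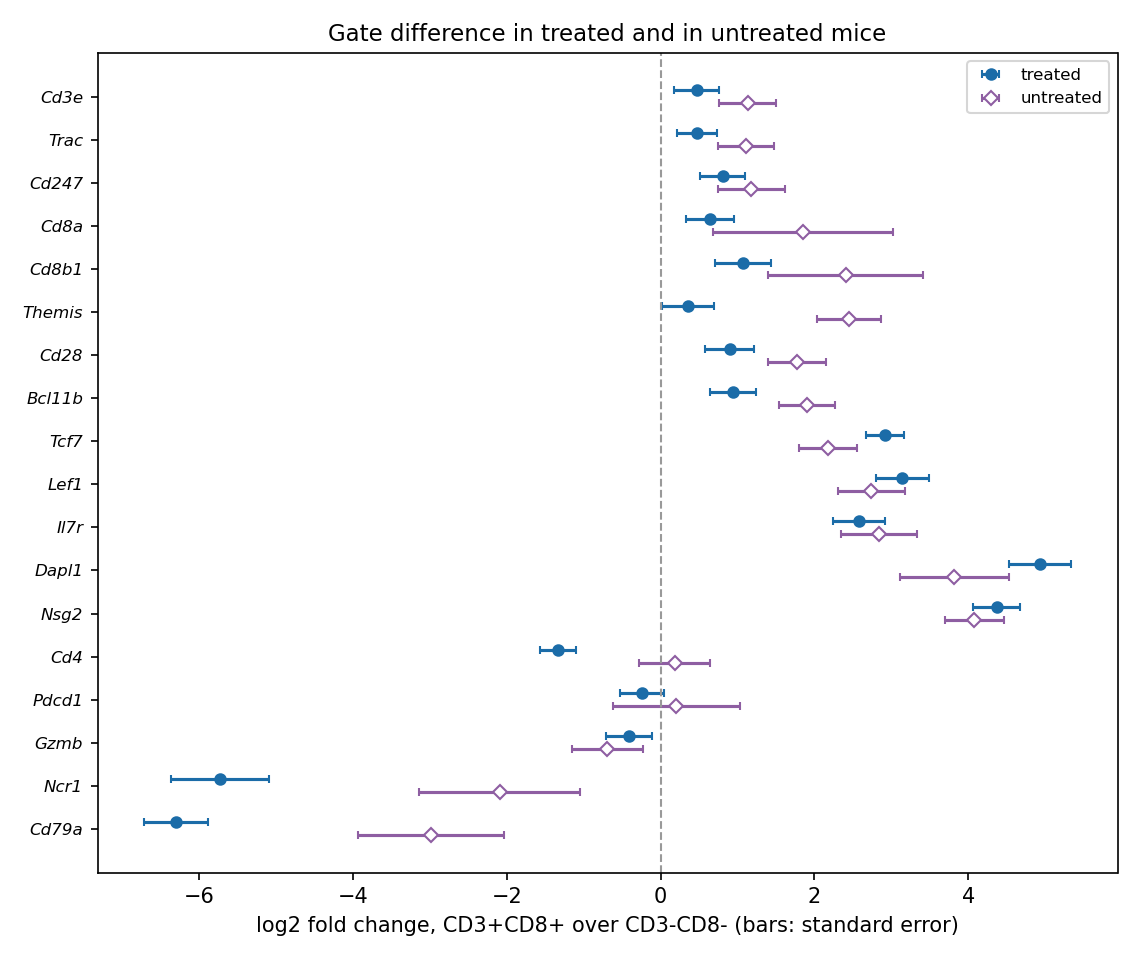
Log2 fold change, CD3+CD8+ over CD3-CD8- (horizontal axis), of 18 genes (rows) in treated mice (filled circles, fit of 6 libraries) and untreated mice (open diamonds, fit of 18 libraries), with standard errors as bars. Tcf7, Lef1, Il7r, Dapl1 and Nsg2 lie well to the right of 0 in both, and Cd3e, Cd8a and Themis lie nearer to 0 in treated mice.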

How the data were processed

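The submitters deposited 2 tables of the whole series. In the first, the authors give raw read counts per Ensembl gene, and in the second, the authors give FPKM values per transcript model. The tools named in the submitters' processing notes are Cufflinks 2.2.1, DESeq2 3.20, HTSeq 0.13.5 and Trim Galore 0.6.7, without their roles. As for the aligner and the genome build, they were not given in the sources used here. Of 40 library columns, 22 belong to other samples and were not used.

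Gene lists and members were chosen with earlier results of these data known. Counts were tested with edgeR 4.0.16 (R 4.3.3; TMM, filterByExpr, quasi-likelihood F-test, two-sided, Benjamini-Hochberg over all genes tested) and a gene was called at an adjusted p under 0.05. Levels are CPM. Alternatives used DESeq2 1.42.0, limma 3.58.1 on log2(FPKM + 1) for a mean FPKM of at least 1, other filters and scalings, offsets corrected for transcript GC content (GENCODE vM21) and each library left out. The test was also checked on simulated counts. Named genes were fixed markers, the largest called changes and the smallest differences of each T cell list, the 3 genes of highest level of each other list, the 8 largest called changes each way and the 5 smallest p-values of the treated minus untreated test, with a mean log2 CPM no lower than 3, or 5 for smallest differences. Other list members, named beside them, were chosen after their values were seen. Some list members are not reported here.

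Libraries of the same number were alike across gates: deviations from the gate means correlated at 0.319, 0.386 and 0.267 over 13040 genes for numbers 11, 2 and 19. Between different numbers they correlated at -0.237 to -0.0731. Deviations from a gate's own mean cancel within that gate, so these negative values follow from the positive ones and add no separate evidence. The number comes from the library names. Where the block by number changed the call of a named gene, its value or range is given. It also changed list counts given above without it. Among them, 6 of 10 Kupffer cell and 13 of 21 monocyte and macrophage genes were called lower. So were 3 of 10 gamma-delta, NKT and type 17 genes, 23 of 23 B cell markers and 15 of 15 MHC class II genes. Called higher were 6 of 16 plasmacytoid dendritic cell and 2 of 13 costimulation genes. Of all genes, 6.27% were lower and 1.23% higher.

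The Poisson floor of 3 counts corresponded to 0.106 to 0.754 CPM in the 6 libraries, and covers counting error only.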

Additional observations from a re-analysis of the deposited data

How the results depend on the processing

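For the gate difference in treated mice, 678 genes were called, which became 1125 without a filter on low counts, 424 with a filter at 5 CPM and 1586 with the GC correction and the replicate block. Leaving out 1 library gave 332 to 714. The 93 called higher became 169 without a filter, 158 with DESeq2 in full, 160 with the replicate block, 230 with the GC correction, 566 with the GC correction and the block, and 38 with limma on FPKM, and 23 to 164 with 1 library left out. The 585 called lower became 956 without a filter, 359 with the stricter filter and 1020 with the GC correction and the block, and 307 to 571 with 1 library left out. The split between higher and lower calls moved most with the GC correction and the block (566 and 1020). The cause was not tested. In the numbers 2 and 11 alone, a setting chosen after seeing the data, 454 were called.

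For the difference between treated and untreated mice, 0 genes were called under most settings, 171 without a filter (10 higher and 161 lower), 1 with DESeq2 in full (lower), and 0 to 2 with 1 library left out, the 2 without untreated CD3+CD8+ number 5. With the replicate block 0 were called.

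Of 104 named genes tested, 37 were called, none of these reversed, and 9 lost their call in some setting: Bcl6, Cd4, Cd5l, Igha, Jchain, Rgs2, Satb1, Slc40a1 and Tnfsf8. Of the named genes, the replicate block changed the calls given with their results and also called Sirpa, Clec4f, S100a8, Ngp, Hdc, Cpa3, Mup20 and Ltf lower (edgeR adjusted p from 0.000316 to 0.017), and it changed no other call of theirs. The median of the cytotoxic list turned to 0.015 with the GC correction. The median of the mitochondrial transcripts (-0.50) ran from -0.88 without CD3-CD8- number 2 to 0.10 without CD3-CD8- number 19. Depth limits the rarest genes: Zbtb16 and Foxp3 rest on a few counts in CD3+CD8+, and Slc6a19 was listed at 0 in CD3-CD8- number 11.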

Other observations

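Among the 93 genes called higher in CD3+CD8+ were others outside the lists, named here after their values were seen. Sidt1, a nucleic acid transporter gene, had a log2 fold change of 2.34 (SE 0.26, edgeR adjusted p = 0.00131), and Arl4c, a small GTPase gene, of 2.02 (SE 0.27, edgeR adjusted p = 0.00331). Myb, a transcription factor of progenitor cells, had 2.09 (SE 0.41, edgeR adjusted p = 0.0204), and Slc16a1, a lactate transporter, 1.52 (SE 0.28, edgeR adjusted p = 0.0151). Racgap1, a gene of cell division, had 1.47 (SE 0.19, edgeR adjusted p = 0.00319). Il9r, a cytokine receptor, was among those called lower, at a log2 fold change of -5.06 (SE 0.43, edgeR adjusted p = 0.000331).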
